A study of Mus musculus with 8 samples.

Results

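The comparison described here sets mice with Tert or TertCi at the p21 locus, fed a high-fat diet (HFD), against mice with mCherry at that locus, fed a standard diet (SD). Its rule takes 6 of the 8 samples of the series: Tert HFD (rep134, rep136) and TertCi HFD (rep138, rep140) on one side and mCherry SD (rep144, rep146) on the other. It asks which traits of fat under the high-fat diet were still measurable where Tert or TertCi was present. A further group on the high-fat diet, mCherry HFD (rep128, rep129), shows the diet difference without either insert. The groups rest on the labels alone, and no measured value chose them.

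By the labels the genotypes were p21+/mCherry on the standard diet, p21+/mCherry on the high-fat diet, p21+/mCherry-Tert on the high-fat diet and p21+/mCherry-TertCi on the high-fat diet. Every mouse, the standard diet controls included, thus carried 1 p21 allele with an insert. Cdkn1a encodes p21, a cyclin-dependent kinase inhibitor, and Tert the reverse transcriptase of telomerase. The design text has the p21 promoter drive the inserts, and the labels do not spell out what TertCi stands for. No Tert or TertCi mouse on the standard diet was analysed here, so diet and insert cannot be told apart in the comparison of 4 libraries with 2. Age, sex and strain are not given in the sources used here. Sex as read from RNA is given below. Samples were prepared in pairs in random order, but which were prepared together is not given.

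Each library held nuclear RNA from frozen visceral white fat of 1 mouse. Nuclei were stained with DAPI, sorted and captured in droplets, and RNA molecules were counted by their unique molecular identifiers (UMIs). The design text conflicts with the labels: it names the stromal vascular fraction, which lacks adipocytes, and a p21+/- genotype under the high-fat diet. Adipocyte genes such as Plin1 and Adipoq were present in every library.

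Visceral fat that expands on a high-fat diet changes in its macrophages and in its adipocytes. Macrophages gather around dying adipocytes and, through the lipid receptor Trem2, become lipid-associated macrophages rich in lysosomal, lipid-handling and cell fusion genes. Resident perivascular macrophages carry scavenger receptors such as Lyve1, Cd163 and Timd4 instead. Adipocytes respond less to insulin, handle lipid differently and remodel the collagen around them. They also carry receptors for growth hormone, which signals through STAT5 and switches on Cish, a feedback inhibitor of that pathway.

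Barcodes with at least 1000 UMIs and at most 5% mitochondrial UMIs were taken as nuclei: 16152 in mCherry SD, 35306 in Tert and TertCi HFD and 26532 in mCherry HFD. Single libraries held 3234 to 21996, and 3 of them held more nuclei than the protocol says were loaded. Total UMIs ranged from 23378488 (rep136) to 139749876 (rep128). Counts were summed over nuclei per library, so each mouse is 1 value, and p-values measure the spread between 2 mice a group. In such sums, fewer nuclei of a type and less RNA per nucleus cannot be told apart. Ddx3y, a gene of the Y chromosome, gave 671 to 11091 UMIs a library, and Xist, expressed in females, gave 1 to 30. By these genes every mouse read as male. The inserts could not be checked from their RNA, because UMIs were few: mCherry gave 0 to 13 a library and Tert gave 11 to 390. These are raw counts that also follow depth. Relative to all UMIs in nuclei, without further scaling between libraries, Tert was lower in each Tert and TertCi library than in each mCherry library. That order depended on the scaling. With the scaling between libraries used for most CPM values below, Tert was higher in rep140 than in rep128 of mCherry HFD. The library rep146 held more RNA of smooth muscle and other mural cells (summed level of that list 588 CPM, against 68.0 to 178 CPM in the others). The library rep128 held genes of another tissue, such as Adam7 of the epididymis (104 CPM, against 0 to 1.16 CPM in the others).

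Far fewer genes separated Tert and TertCi HFD from the standard diet than separated mCherry HFD from it. Over all nuclei 279 of 22678 genes differed between Tert and TertCi HFD and mCherry SD (edgeR's quasi-likelihood test, Benjamini-Hochberg adjusted p under 0.05). They made up 1.23% of the genes, 189 higher (0.833%) and 90 lower (0.397%). For mCherry HFD against mCherry SD 8979 genes were called (39.6%), 5042 higher and 3937 lower. For Tert and TertCi HFD against mCherry HFD 8389 were called (37.0%), 3453 higher and 4936 lower. These comparisons share libraries, so values are set side by side and overlaps are not counted. With scaling by library totals only, the share of higher calls was 78.9% in place of 56.2% for mCherry HFD against mCherry SD, and 19.5% in place of 41.2% for Tert and TertCi HFD against mCherry HFD.

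These numbers depended on single libraries. The 279 calls came to 32 without rep146, 527 without rep144, 50 without rep138, 54 without rep140, 121 without rep128 and 145 without rep129. The 8979 came to 3491 without rep128, 5850 without rep129 and 5098 without rep144. The 8389 came to 2009 without rep128, 4610 without rep129, 5215 without rep138 and 4785 without rep140. The split of the 279 calls turned without rep144, to 148 higher and 379 lower, and with no filter on low counts, to 1261 higher and 1418 lower. With DESeq2 it was 757 higher and 593 lower. Genes named below kept their call against mCherry SD, or its absence, without any 1 of the 8 libraries unless the change is stated.

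The clearest trait that remained was the program of lipid-associated macrophages. Of the 16 genes of that list, 7 were higher in Tert and TertCi HFD than in mCherry SD (0.833% of all genes tested were) and none was lower. DESeq2 called 11 of the 16 higher, and 757 of all 22678 genes. The median log2 fold change of the list was 1.41, against 0.01 over all genes. In mCherry HFD against mCherry SD 15 of 16 were higher (22.2% of all genes) with a median of 3.86. In Tert and TertCi HFD against mCherry HFD 15 of 16 were lower (21.8% of all genes) with a median of -1.91. The remaining levels thus stood between the standard diet and the full diet level. CPM values are UMIs per 1000000 of the library, scaled between libraries by edgeR's TMM factors. They are given in the order rep144, rep146 for mCherry SD, rep134, rep136, rep138, rep140 for Tert and TertCi HFD, and rep128, rep129 for mCherry HFD.

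Gpnmb, a membrane glycoprotein of lipid-laden macrophages, measured 13.9 and 11.0 CPM in mCherry SD, 147, 184, 89.6 and 90.9 CPM in Tert and TertCi HFD and 743 and 666 CPM in mCherry HFD. For Gpnmb the log2 fold change came to 3.30 ± 0.18 (SE), with an adjusted p of 0.00049. The 3 groups did not overlap, and the TertCi values were the lower ones of the 4. Atp6v0d2, a subunit of the proton pump that acidifies lysosomes, measured 12.3 and 11.3 CPM in mCherry SD, 159, 233, 97.1 and 107 CPM in Tert and TertCi HFD and 575 and 573 CPM in mCherry HFD. For Atp6v0d2 the log2 fold change came to 3.58 ± 0.20 (SE), with an adjusted p of 0.00049. Mmp12, the elastase of macrophages, measured 8.54 and 9.52 CPM in mCherry SD, 116, 131, 85.6 and 70.1 CPM in Tert and TertCi HFD and 390.1 and 348 CPM in mCherry HFD. For Mmp12 the log2 fold change came to 3.44 ± 0.16 (SE), with an adjusted p of 0.00049. Lgals3 encodes galectin-3, which binds damaged lysosomes, and measured 33.3 and 46.0 CPM in mCherry SD, 192, 177, 114 and 119 CPM in Tert and TertCi HFD and 575 and 519 CPM in mCherry HFD. For Lgals3 the log2 fold change came to 1.88 ± 0.17 (SE), with an adjusted p of 0.0034. Itgax, the integrin CD11c, measured 3.60 and 2.74 CPM in mCherry SD, 20.5, 22.7, 14.2 and 13.1 CPM in Tert and TertCi HFD and 54.1 and 42.5 CPM in mCherry HFD. For Itgax the log2 fold change came to 2.45 ± 0.20 (SE), with an adjusted p of 0.0027. In all 5 genes every Tert and TertCi library was above both mCherry SD libraries and below both mCherry HFD libraries.

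Trem2 itself rose too, at 2.47 and 2.47 CPM in mCherry SD, 12.03, 9.25, 5.85 and 5.31 CPM in Tert and TertCi HFD and 65.8 and 55.2 CPM in mCherry HFD. For Trem2 the log2 fold change came to 1.65 ± 0.18 (SE), with an adjusted p of 0.011. Dcstamp, which macrophages need to fuse into giant cells, was called as well (2.59 ± 0.40 (SE), adjusted p = 0.032). Trem2 lost its call without rep146 or rep138 (adjusted p 0.059 to 0.11). Dcstamp lost its call without rep144, rep146, rep128, rep134, rep138 or rep140 (adjusted p 0.059 to 0.13). The other 9 genes of the list did not pass the test. Lipa, the acid lipase of lysosomes, measured 39.2 and 28.6 CPM in mCherry SD, 109, 70.1, 66.3 and 59.2 CPM in Tert and TertCi HFD and 246 and 212 CPM in mCherry HFD. Plin2, the coat protein of small lipid droplets, measured 79.5 and 90.0 CPM in mCherry SD, 205, 122, 122 and 137.6 CPM in Tert and TertCi HFD and 539 and 472 CPM in mCherry HFD. The 4 values were above both standard diet values in Lipa (adjusted p = 0.055) and in Plin2 (adjusted p = 0.12). Lipa was called without rep136 (adjusted p = 0.025). Plin2 was called without rep136 (adjusted p = 0.03). The lysosomal proteases Ctsd (0.82 ± 0.19 (SE), adjusted p = 0.086) and Ctsl (0.27 ± 0.20 (SE), adjusted p = 0.55) were lower than in mCherry HFD (-2.23 and -3.03 on the log2 scale, adjusted p = 0.00043 and 0.00023). Spp1, the matrix protein osteopontin, was at 0.0537 and 0.215 CPM in mCherry SD, 0.899, 1.04, 0.206 and 0.168 CPM in Tert and TertCi HFD and 6.91 and 9.85 CPM in mCherry HFD. Lpl and Cd36, lipid uptake genes that adipocytes also make, overlapped between Tert and TertCi HFD (544, 497, 512 and 528 CPM, and 1246, 1007, 1371 and 1275 CPM) and mCherry SD (478 and 541 CPM, and 921 and 1091 CPM).

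**Figure D1:**
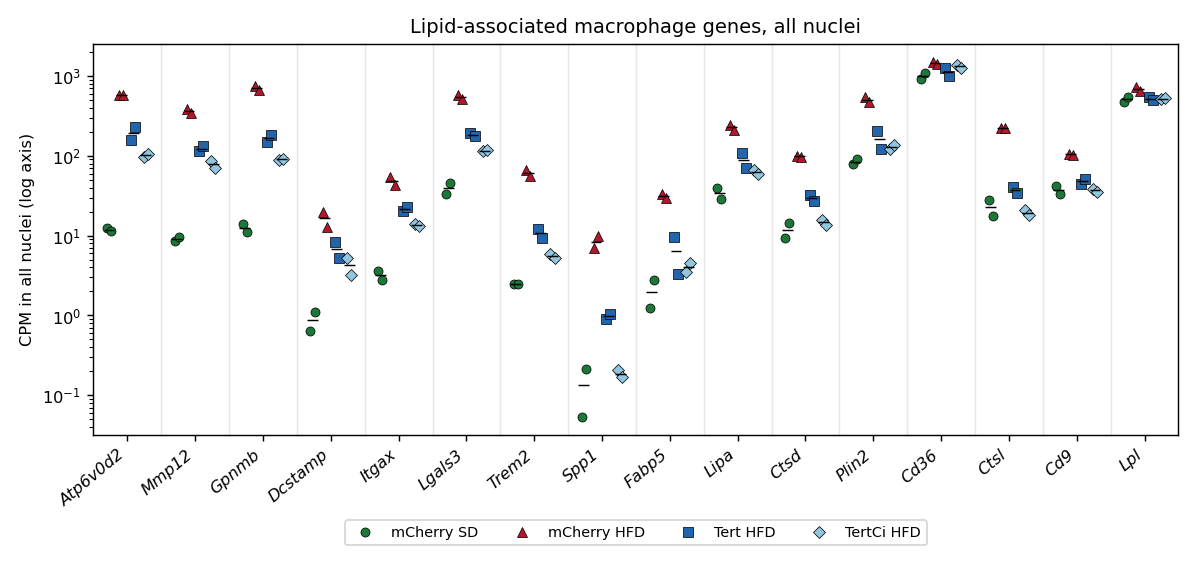
Level of the 16 genes of the lipid-associated macrophage list in all nuclei, in CPM on a log axis, with 1 point a library and a bar at each group's mean. For Gpnmb the mCherry SD points lie at 13.9 and 11.0 CPM, the Tert and TertCi points between 89.6 and 184 CPM, and the mCherry HFD points at 743 and 666 CPM.

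Genes outside that list led the higher calls as well. Rgs1, a regulator of chemokine receptor signals in leukocytes, measured 1.07 and 1.18 CPM in mCherry SD, 24.9, 14.0, 12.8 and 10.6 CPM in Tert and TertCi HFD and 113 and 94.5 CPM in mCherry HFD. For Rgs1 the log2 fold change came to 3.75 ± 0.30 (SE), with an adjusted p of 0.0025. St18, a zinc finger transcription factor, measured 15.5 and 19.1 CPM in mCherry SD, 195, 194, 110.1 and 97.0 CPM in Tert and TertCi HFD and 613 and 498 CPM in mCherry HFD. For St18 the log2 fold change came to 3.03 ± 0.17 (SE), with an adjusted p of 0.00049. Efr3b, which helps to anchor a lipid kinase at the plasma membrane, measured 3.60 and 4.68 CPM in mCherry SD, 41.7, 43.1, 23.3 and 25.5 CPM in Tert and TertCi HFD and 175 and 145.9 CPM in mCherry HFD. For Efr3b the log2 fold change came to 2.94 ± 0.17 (SE), with an adjusted p of 0.00056. Ankdd1a, an ankyrin repeat protein, was called too (2.85 ± 0.21 (SE), adjusted p = 0.0019). In these 4 genes every Tert and TertCi library was above both mCherry SD libraries and below both mCherry HFD libraries. The coagulation factor gene F7 (3.10 ± 0.28 (SE), adjusted p = 0.0042) and Tnip3, an inhibitor of NF-kB signals (2.46 ± 0.21 (SE), adjusted p = 0.0028), followed the same order. F7 lost its call without rep146 (adjusted p = 0.058). Tnip3 lost its call without rep146 (adjusted p = 0.05).

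Atf3, a stress-induced transcription factor, measured 5.96 and 5.001 CPM in mCherry SD, 23.9, 32.7, 19.1 and 24.5 CPM in Tert and TertCi HFD and 82.5 and 63.4 CPM in mCherry HFD. For Atf3 the log2 fold change came to 2.18 ± 0.22 (SE), with an adjusted p of 0.0071. Of 15 cholesterol genes 2 were higher (0.833% of all genes were) and none lower. Abcg1, which exports cholesterol from macrophages, measured 29.9 and 31.4 CPM in mCherry SD, 58.4, 58.1, 56.8 and 52.6 CPM in Tert and TertCi HFD and 99.0 and 89.9 CPM in mCherry HFD. For Abcg1 the log2 fold change came to 0.88 ± 0.11 (SE), with an adjusted p of 0.018. Its 4 values lay close together. Soat1, which esterifies cholesterol, measured 37.9 and 32.5 CPM in mCherry SD, 76.9, 97.6, 53.5 and 58.1 CPM in Tert and TertCi HFD and 180.4 and 159 CPM in mCherry HFD. For Soat1 the log2 fold change came to 0.98 ± 0.15 (SE), with an adjusted p of 0.031. On the lysosome list 3 of 22 were higher by edgeR and 8 by DESeq2, against the same 0.833% and, by DESeq2, 757 of 22678 genes. The 3 were Atp6v0d2 and the cysteine proteases Ctss (1.25 ± 0.18 (SE), adjusted p = 0.027) and Ctsk (1.32 ± 0.22 (SE), adjusted p = 0.038). Of 24 inflammatory cytokines and chemokines 1 was higher by edgeR and 4 by DESeq2, against the same background. The 1 was Il1rn, the decoy ligand of the interleukin-1 receptor, at 0.376 and 0.296 CPM in mCherry SD, 3.30, 2.39, 0.906 and 0.839 CPM in Tert and TertCi HFD and 14.0 and 12.96 CPM in mCherry HFD. For Il1rn the log2 fold change came to 2.28 ± 0.30 (SE), with an adjusted p of 0.02. Tnf (1.23 and 0.941 CPM in mCherry SD and 2.19, 2.69, 1.13 and 2.01 CPM in Tert and TertCi HFD, adjusted p = 0.33) and Ccl2 (5.32 and 12.2 CPM and 15.8, 9.25, 3.62 and 6.15 CPM, adjusted p = 0.88), classical signals of inflamed fat, did not pass the test. Each of the calls of Atf3, Abcg1, Soat1, Ctss, Ctsk and Il1rn was lost when some single library was left out. Atf3 lost its call without rep146 (adjusted p = 0.086). Abcg1 lost its call without rep144, rep146, rep138 or rep140 (adjusted p 0.051 to 0.13). Soat1 lost its call without rep146, rep128, rep129, rep138 or rep140 (adjusted p 0.056 to 0.18). Ctss lost its call without rep146, rep128, rep134, rep138 or rep140 (adjusted p 0.054 to 0.13). Ctsk lost its call without rep144, rep146, rep128, rep129, rep134, rep138 or rep140 (adjusted p 0.055 to 0.21). Il1rn lost its call without rep146, rep128, rep129, rep138 or rep140 (adjusted p 0.056 to 0.16).

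Few general macrophage markers passed the test. Of 12 macrophage markers 2 were higher (0.833% of all genes were), Ctss and Tyrobp, an adaptor of Trem2, with a list median of 0.64. In mCherry HFD against mCherry SD it was 10 of 12 higher (22.2% of all genes were) with a median of 1.91. Tyrobp lost its call without rep146, rep128, rep129, rep134, rep138 or rep140 (adjusted p 0.067 to 0.19). The loss for Ctss was given above. Nuclei were also sorted into marked classes. Each was thinned to 1000 UMIs and called macrophage-marked with UMIs of at least 3 of the 12 macrophage markers, or adipocyte-marked with at least 3 of 10 adipocyte markers. Nuclei that reached both, 0.37% to 1.98% a library, were put in neither. Macrophage-marked nuclei made up 7.46% and 7.14% of the mCherry SD libraries, 25.8% and 11.1% of Tert HFD, 15.2% and 16.7% of TertCi HFD, and 47.9% and 40.7% of mCherry HFD. The means were 7.30% ± 0.223 (SD, n = 2) in mCherry SD and 17.2% ± 6.20 (SD, n = 4) in Tert and TertCi HFD. All 4 shares lay above both standard diet shares (difference 9.89 points, two-sided exact permutation p = 0.133). The difference was 4.75 points with at least 4 markers required and 13.6 points with at least 2. With 15 arrangements the smallest possible p is 0.0667. Without thinning the shares were 11.6% and 7.70% in mCherry SD and 31.8%, 17.8%, 19.6% and 24.5% in Tert and TertCi HFD. From 37.7% to 66.8% of the marked nuclei of a library had exactly 3 markers, so the class is a range and not a sharp type.

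Summed over macrophage-marked nuclei alone, lipid-associated genes stayed higher in Tert and TertCi HFD than in mCherry SD. In these nuclei 444 of 14885 genes were called (2.98%), 208 higher (1.40%) and 236 lower (1.59%). Of the 16 lipid-associated genes 8 were higher and none lower, with a median of 1.85 against 0.01 over all genes. Gpnmb measured 16.1 and 17.8 CPM in mCherry SD, 219.6, 201, 179 and 149 CPM in Tert and TertCi HFD and 865 and 789 CPM in mCherry HFD in these nuclei. For Gpnmb the log2 fold change came to 3.45 ± 0.18 (SE), with an adjusted p of 3.3e-06. Mmp12 measured 8.94 and 12.2 CPM in mCherry SD, 159.5, 222, 170.5 and 174 CPM in Tert and TertCi HFD and 479.5 and 405 CPM in mCherry HFD. For Mmp12 the log2 fold change came to 4.02 ± 0.23 (SE), with an adjusted p of 4.3e-06. Atp6v0d2 measured 39.3 and 33.0 CPM in mCherry SD, 319, 433, 279.7 and 267 CPM in Tert and TertCi HFD and 825 and 835 CPM in mCherry HFD. For Atp6v0d2 the log2 fold change came to 3.15 ± 0.18 (SE), with an adjusted p of 4.3e-06. In none of these 3 genes did any group overlap with another. Lgals3 (2.04 ± 0.15 (SE), adjusted p = 5.2e-05) and Itgax (3.13 ± 0.32 (SE), adjusted p = 0.00038) were also higher. Lpl, whose groups overlapped over all nuclei, measured 189 and 195 CPM in mCherry SD, 425, 485, 371 and 257 CPM in Tert and TertCi HFD and 928 and 825 CPM in mCherry HFD here. For Lpl the log2 fold change came to 0.98 ± 0.16 (SE), with an adjusted p of 0.008. Its adjusted p was 0.12 with at least 4 markers required. Trem2 (1.66 ± 0.31 (SE), adjusted p = 0.014) and Lipa (1.03 ± 0.22 (SE), adjusted p = 0.031) were called too. Trem2 lost its call without rep144, rep146, rep134 or rep138 (adjusted p 0.051 to 0.16). Lipa lost its call without rep146, rep134 or rep138 (adjusted p 0.099 to 0.24). In mCherry HFD 16 of 16 genes were above mCherry SD (17.7% of all genes were), and 16 of 16 were lower in Tert and TertCi HFD than in mCherry HFD (20.3% of all genes were). The split of all calls against mCherry SD turned to 218 higher and 204 lower with at least 2 markers required. Higher calls also outnumbered lower ones without rep134, rep136, rep138 or rep140. The 444 calls came to 172 without rep134, 219 without rep138 and 245 without either rep144 or rep146, and without rep134 they turned to 120 higher and 52 lower.

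Free RNA moved the same way, and its part in these values was not tested. Levels by kind of barcode are given as plain CPM, UMIs per 1000000 without TMM scaling. Gpnmb in droplets of at most 100 UMIs, taken to hold no nucleus, was at 17.5 and 14.5 plain CPM in mCherry SD and 201, 299, 99.3 and 145 plain CPM in Tert and TertCi HFD. In adipocyte-marked nuclei it was at 7.61 and 6.07 plain CPM in mCherry SD and 57.6, 51.4, 35.7 and 39.9 plain CPM in Tert and TertCi HFD. In macrophage-marked nuclei it was at 14.5 and 17.7 plain CPM in mCherry SD and 232, 186, 174 and 139 plain CPM in Tert and TertCi HFD. Adipocyte-marked nuclei were below the empty droplets of the same library in all 6 libraries. Macrophage-marked nuclei were below them in rep144, rep136 and rep140 and above them in rep146, rep134 and rep138. A ratio sets the summed lipid-associated list against the 12 macrophage markers of the same nuclei. Over all nuclei it overlapped between mCherry SD and Tert and TertCi HFD, with 1.45 and 1.92 in mCherry SD, 1.45, 1.95, 1.80 and 1.73 in Tert and TertCi HFD and 2.17 and 2.19 in mCherry HFD. In macrophage-marked nuclei it was 0.374 and 0.388 in mCherry SD, 0.686, 0.632, 0.632 and 0.520 in Tert and TertCi HFD and 1.54 and 1.502 in mCherry HFD, with no overlap between groups. In empty droplets the same ratio ran from 1.86 to 2.81 with no order by group. The list's sum includes Lpl and Cd36, which adipocytes also make, so over all nuclei and in empty droplets the ratio also follows adipocyte RNA. In macrophage-marked nuclei it is taken over the same markers that chose the nuclei. It therefore does not show how much free RNA entered the marked nuclei.

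Perivascular macrophage genes stood the other way in such a ratio, with a single call. Relative to the macrophage markers, with Mrc1 taken out of both lists, their sum in macrophage-marked nuclei was 2.11 and 2.12 in mCherry SD, 1.496, 1.18, 1.69 and 1.43 in Tert and TertCi HFD and 0.492 and 0.580 in mCherry HFD. Empty droplets gave the same order, with 2.03 and 1.67, then 1.19, 0.921, 1.22 and 1.33, then 0.413 and 0.434. The list's own sum in macrophage-marked nuclei, Mrc1 included, overlapped between mCherry SD and Tert and TertCi HFD. It was 7184 and 8184 plain CPM in mCherry SD and 7328, 5249, 7644 and 6321 plain CPM in Tert and TertCi HFD. In mCherry HFD it was 3271 and 3527 plain CPM. Of the 12 genes 1 was called (1.59% of all genes were lower): Timd4, a receptor for dying cells on resident macrophages, fell. It measured 157 and 95.6 CPM in mCherry SD, 33.7, 19.1, 67.0 and 49.1 CPM in Tert and TertCi HFD and 7.40 and 11.6 CPM in mCherry HFD. For Timd4 the log2 fold change came to -1.56 ± 0.25 (SE), with an adjusted p of 0.0082. Timd4 lost its call without rep144 (adjusted p = 0.076). Cd163, the haemoglobin scavenger receptor, measured 307 and 471 CPM in mCherry SD, 351, 246, 576 and 376 CPM in Tert and TertCi HFD and 183 and 126 CPM in mCherry HFD. Its Tert and TertCi values overlapped with mCherry SD and differed from mCherry HFD (1.30 ± 0.24 (SE), adjusted p = 0.0015). Lyve1, the hyaluronan receptor, measured 67.0 and 107 CPM in mCherry SD, 51.0, 27.7, 62.0 and 50.7 CPM in Tert and TertCi HFD and 28.0 and 25.4 CPM in mCherry HFD and was not called (adjusted p = 0.083).

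**Figure D2:**
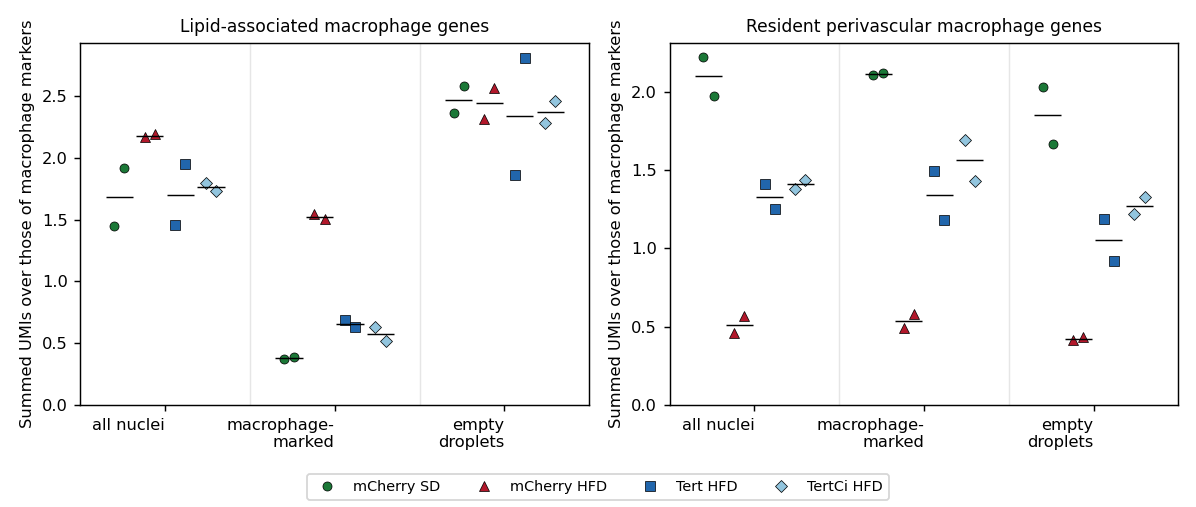
Ratio of summed CPM within each library, for the lipid-associated list over the 12 macrophage markers (left) and the perivascular list over 11 of them, with Mrc1 taken out of both lists (right), in all nuclei, macrophage-marked nuclei and empty droplets, with 1 point a library. In macrophage-marked nuclei the left ratio lies at 0.374 and 0.388 in mCherry SD and between 0.520 and 0.686 in Tert and TertCi HFD, while over all nuclei and in empty droplets these groups overlap.

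Genes outside the list differed inside macrophage-marked nuclei as well. Myh15, a myosin heavy chain, measured 0.894 and 1.02 CPM in mCherry SD, 24.9, 46.8, 17.5 and 16.2 CPM in Tert and TertCi HFD and 93.9 and 81.4 CPM in mCherry HFD. For Myh15 the log2 fold change came to 4.52 ± 0.52 (SE), with an adjusted p of 0.00085. Fgf13, an intracellular member of the fibroblast growth factor family, measured 16.1 and 11.7 CPM in mCherry SD, 105, 348, 172 and 149 CPM in Tert and TertCi HFD and 591 and 559 CPM in mCherry HFD. For Fgf13 the log2 fold change came to 3.75 ± 0.49 (SE), with an adjusted p of 0.0021. Its 4 values were widely spread, with rep136 the highest, and lay between the mCherry groups. Abcg1 measured 31.3 and 32.0 CPM in mCherry SD, 101, 107, 87.6 and 101 CPM in Tert and TertCi HFD and 149 and 137 CPM in mCherry HFD, with the 4 values close together. For Abcg1 the log2 fold change came to 1.63 ± 0.16 (SE), with an adjusted p of 0.00037. Soat1 (0.78 ± 0.15 (SE), adjusted p = 0.019), Atf3 (2.05 ± 0.25 (SE), adjusted p = 0.0014), Efr3b (4.43 ± 0.37 (SE), adjusted p = 0.00014) and Ankdd1a (3.32 ± 0.34 (SE), adjusted p = 0.00038) were higher here as well. Diaph3, a formin used in cell division, was the 1 gene called of 10 on the cell cycle list (1.40% of all genes were higher), at 33.1 and 34.6 CPM in mCherry SD, 70.1, 107, 52.3 and 98.6 CPM in Tert and TertCi HFD and 79.4 and 80.7 CPM in mCherry HFD. For Diaph3 the log2 fold change came to 1.20 ± 0.28 (SE), with an adjusted p of 0.044. Soat1 lost its call without rep144, rep146 or rep138 (adjusted p 0.055 to 0.09). Diaph3 lost its call without rep144, rep146, rep134, rep136 or rep140 (adjusted p 0.051 to 0.19). AU022793, a gene known by its clone name, measured 0.894 and 0.508 CPM in mCherry SD, 14.6, 8.67, 11.7 and 12.4 CPM in Tert and TertCi HFD and 40.5 and 24.6 CPM in mCherry HFD. For AU022793 the log2 fold change came to 4.27 ± 0.65 (SE), with an adjusted p of 0.006. AU022793 lost its call without rep146 or rep134 (adjusted p 0.06 to 0.087). Nuclei with at least 3 adipocyte markers were kept out of the macrophage-marked class, so calls of those markers there are no finding. The largest falls in macrophage-marked nuclei included adipocyte genes and genes at low levels. Besides 4 of 10 adipocyte markers (1.59% of all genes were lower) and Cyp2e1, they held Actg2, a smooth muscle actin, at 0.894 and 22.4 CPM in mCherry SD and 0.0758, 0, 0 and 0 CPM in Tert and TertCi HFD. Mdga2, a synaptic adhesion protein, was at 11.6 and 70.2 CPM in mCherry SD and 1.59, 3.47, 1.08 and 0 CPM in Tert and TertCi HFD. Unc5c, a netrin receptor, was at 8.94 and 15.3 CPM in mCherry SD and 0.531, 1.73, 0.721 and 0.539 CPM in Tert and TertCi HFD. Hpse2, an inhibitor of heparanase, was at 9.83 and 23.9 CPM in mCherry SD and 3.18, 0, 0.541 and 1.08 CPM in Tert and TertCi HFD, and Pdzrn4, a PDZ domain protein, at 33.1 and 3.05 CPM in mCherry SD and 1.82, 0, 1.80 and 0 CPM in Tert and TertCi HFD. Actg2, Mdga2 and Hpse2 were highest in rep146 and Pdzrn4 in rep144. Actg2 lost its call without rep146, rep134 or rep138 (adjusted p 0.062 to 0.55). Mdga2 lost its call without rep146 (adjusted p = 0.079). Unc5c lost its call without rep146, rep134 or rep138 (adjusted p 0.061 to 0.14). Hpse2 lost its call without rep146, rep134 or rep138 (adjusted p 0.054 to 0.2). Pdzrn4 lost its call without rep144, rep128, rep129, rep134, rep136, rep138 or rep140 (adjusted p 0.052 to 0.76). Cyp2e1, a cytochrome P450, was at 54.8 and 82.3 plain CPM in mCherry SD and 4.32, 3.21, 5.59 and 7.52 plain CPM in Tert and TertCi HFD in macrophage-marked nuclei. It was at 304 and 447 plain CPM in mCherry SD and 52.9, 20.9, 50.6 and 48.2 plain CPM in Tert and TertCi HFD in adipocyte-marked nuclei. In empty droplets it was at 189.8 and 368 plain CPM in mCherry SD and 23.4, 21.5, 29.7 and 29.6 plain CPM in Tert and TertCi HFD.

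Adipocyte identity genes did not pass the test. Of 10 adipocyte markers 0 were called in Tert and TertCi HFD against mCherry SD by edgeR, with a median of -0.37. At an unadjusted p under 0.05 it was 4 (3753 of all 22678 genes), and DESeq2 called 1 (5.95% of all genes). In mCherry HFD all 10 adipocyte markers were lower than in mCherry SD (17.4% of all genes were) with a median of -2.85. All 10 were higher in Tert and TertCi HFD than in mCherry HFD (15.2% of all genes were) with a median of 2.63. Plin1, the coat protein of the large lipid droplet, measured 259.9 and 325 CPM in mCherry SD, 214, 212, 263 and 242 CPM in Tert and TertCi HFD and 44.9 and 47.4 CPM in mCherry HFD. For Plin1 the log2 fold change came to -0.34 ± 0.13 (SE), with an adjusted p of 0.24. Adipoq encodes the hormone adiponectin and measured 55.7 and 89.8 CPM in mCherry SD, 46.3, 34.3, 84.6 and 64.3 CPM in Tert and TertCi HFD and 8.73 and 9.19 CPM in mCherry HFD. For Adipoq the log2 fold change came to -0.41 ± 0.22 (SE), with an adjusted p of 0.41. Lep encodes leptin and measured 158 and 103 CPM in mCherry SD, 79.7, 248, 132 and 210.2 CPM in Tert and TertCi HFD and 26.1 and 27.2 CPM in mCherry HFD. For Lep the log2 fold change came to 0.36 ± 0.42 (SE), with an adjusted p of 0.74. In these 3 genes the Tert and TertCi values overlapped with mCherry SD, and none came down to the mCherry HFD level. They do not stand for the whole list. Adrb3, another of the 10 markers, had every Tert and TertCi value below both mCherry SD values and is given below. A p above the threshold does not show equal levels.

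Adipocyte-marked nuclei made up 36.7% and 40.4% of the mCherry SD libraries, 12.9% and 32.0% of Tert HFD, 26.5% and 23.2% of TertCi HFD, and 1.66% and 2.51% of mCherry HFD. The means were 38.5% ± 2.67 (SD, n = 2) in mCherry SD and 23.7% ± 8.04 (SD, n = 4) in Tert and TertCi HFD (difference -14.9 points, two-sided exact permutation p = 0.133). All 4 shares were below both standard diet shares. Without thinning they overlapped, with 35.3% and 49.5% in mCherry SD and 16.7%, 35.7%, 31.4% and 21.8% in Tert and TertCi HFD. In mCherry HFD the class held only 365 (rep128) and 114 (rep129) nuclei. Their median depth was 13529 and 6210 UMIs, against 2984 and 3063 UMIs in mCherry SD (rep144, rep146). In Tert and TertCi HFD the class had a median depth of 5399, 2335, 4293 and 5431 UMIs (rep134, rep136, rep138, rep140). The part of depth in the differences within this class was not tested.

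A small set of genes was far below the standard diet all the same, Cish among them. Cish, the feedback inhibitor that STAT5 switches on, measured 61.3 and 62.8 CPM in mCherry SD, 3.22, 5.07, 3.44 and 3.30 CPM in Tert and TertCi HFD and 1.42 and 2.10 CPM in mCherry HFD. For Cish the log2 fold change came to -4.09 ± 0.21 (SE), with an adjusted p of 0.00049. Every high-fat diet library was far below both standard diet libraries, and the difference between Tert and TertCi HFD and mCherry HFD was small beside it (1.10 ± 0.25 (SE), adjusted p = 0.012; adjusted p = 0.14 without rep128). In adipocyte-marked nuclei alone Cish measured 85.9 and 85.3 CPM in mCherry SD, 2.60, 6.08, 3.33 and 4.23 CPM in Tert and TertCi HFD and 2.83 and 3.48 CPM in mCherry HFD. For Cish the log2 fold change came to -4.54 ± 0.26 (SE), with an adjusted p of 0.00011. Empty droplets held 46.0 and 88.2 plain CPM in mCherry SD and 5.52, 6.01, 4.25 and 5.23 plain CPM in Tert and TertCi HFD, the same order as the nuclei. The start of the gene is shown because STAT5 is known to bind a pair of its motifs there. The stretch runs from 5 bases before to 25 bases after the start site in RefSeq's table (GRCm38.p6, plus strand, chr9:107296654-107296683), with TTCNNNGAA in capitals.

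Cish: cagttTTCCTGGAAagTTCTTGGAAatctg

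The motif TTCNNNGAA, which reads alike on both strands, stood in the window from 250 bases before to 50 after the start of 4 genes of the growth hormone receptor and STAT5 list: Bcl6, Cish, Prlr and Socs3. RefSeq's table held 11 genes of the list. Of all 27025 genes in that resource, 9.55% had the motif. A match describes letters and not a site in use. Of the list's 11 genes tested Cish alone was called by edgeR (0.397% of all genes were lower) and 3 by DESeq2, 1 of them higher (5.95% of all genes were called), with a median of -0.56. Ghr, the growth hormone receptor, measured 15429 and 10652 CPM in mCherry SD, 4015, 8237, 8834 and 6978 CPM in Tert and TertCi HFD and 701 and 1161 CPM in mCherry HFD. For Ghr the log2 fold change came to -0.91 ± 0.35 (SE), with an adjusted p of 0.25. Socs2, another feedback inhibitor of the pathway, measured 27.9 and 29.3 CPM in mCherry SD, 22.0, 13.1, 19.5 and 18.2 CPM in Tert and TertCi HFD and 20.7 and 24.3 CPM in mCherry HFD (adjusted p = 0.17). Igf1, which growth hormone induces, measured 527 and 498 CPM in mCherry SD, 381, 298, 196 and 371 CPM in Tert and TertCi HFD and 275 and 328 CPM in mCherry HFD (adjusted p = 0.19). In these 3 genes the 4 values were all below both mCherry SD values, yet none passed the test.

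Zyg11a, a substrate receptor of a ubiquitin ligase, measured 39.4 and 33.5 CPM in mCherry SD, 2.67, 3.73, 3.91 and 3.97 CPM in Tert and TertCi HFD and 1.09 and 0.664 CPM in mCherry HFD. For Zyg11a the log2 fold change came to -3.39 ± 0.22 (SE), with an adjusted p of 0.00097. Its Tert and TertCi values were all above both mCherry HFD values and far below both mCherry SD values. Ncam2, a neural cell adhesion molecule, measured 45.8 and 34.6 CPM in mCherry SD, 5.86, 4.63, 5.37 and 3.58 CPM in Tert and TertCi HFD and 4.35 and 3.54 CPM in mCherry HFD. For Ncam2 the log2 fold change came to -3.03 ± 0.22 (SE), with an adjusted p of 0.0019. Acacb makes the malonyl-CoA that restrains fatty acid oxidation and measured 322 and 206 CPM in mCherry SD, 23.4, 34.3, 67.5 and 36.2 CPM in Tert and TertCi HFD and 8.18 and 8.19 CPM in mCherry HFD. For Acacb the log2 fold change came to -2.78 ± 0.28 (SE), with an adjusted p of 0.0067. Its Tert and TertCi values lay between the groups with mCherry.

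Cyp2e1, which oxidises ethanol and fatty acids, measured 235 and 312 CPM in mCherry SD, 17.0, 17.3, 27.7 and 31.0 CPM in Tert and TertCi HFD and 3.23 and 0.554 CPM in mCherry HFD. For Cyp2e1 the log2 fold change came to -3.61 ± 0.40 (SE), with an adjusted p of 0.0099. Slc1a3, a glutamate transporter, measured 1562 and 1063 CPM in mCherry SD, 142, 436, 273 and 254 CPM in Tert and TertCi HFD and 19.7 and 33.3 CPM in mCherry HFD. For Slc1a3 the log2 fold change came to -2.25 ± 0.40 (SE), with an adjusted p of 0.048. Pik3r1, the regulatory subunit of the kinase that insulin activates, measured 1204 and 962 CPM in mCherry SD, 254, 413, 367 and 432 CPM in Tert and TertCi HFD and 193 and 180.4 CPM in mCherry HFD. For Pik3r1 the log2 fold change came to -1.57 ± 0.20 (SE), with an adjusted p of 0.017. In these 3 genes every Tert and TertCi value lay between the mCherry SD and the mCherry HFD values. Cyp2e1 lost its call without rep146, rep138 or rep140 (adjusted p 0.072 to 0.075). Slc1a3 lost its call without rep144, rep146, rep128, rep129, rep138 or rep140 (adjusted p 0.064 to 0.19). Pik3r1 lost its call without rep146, rep138 or rep140 (adjusted p 0.072 to 0.085). Kif26b (11.5 and 42.7 CPM in mCherry SD, 3.42, 1.49, 5.15 and 3.97 CPM in Tert and TertCi HFD) and Slco2a1 (48.9 and 166 CPM, 26.6, 19.0, 24.1 and 17.9 CPM) were high in rep146, the library with more mural RNA. The netrin receptor Unc5c was at 17.99 and 30.9 CPM in mCherry SD, 1.56, 3.13, 3.73 and 1.62 CPM in Tert and TertCi HFD and 1.22 and 2.49 CPM in mCherry HFD. Gbp11, an interferon-induced GTPase, was at 15.8 and 8.85 CPM in mCherry SD, 1.95, 1.19, 2.74 and 1.96 CPM in Tert and TertCi HFD and 0.595 and 0.830 CPM in mCherry HFD, and Sntg1, a syntrophin, at 401 and 213 CPM in mCherry SD, 43.2, 41.5, 69.9 and 60.0 CPM in Tert and TertCi HFD and 66.8 and 231 CPM in mCherry HFD. In these 5 genes all 4 values were below both mCherry SD values. Unc5c lost its call without rep146, rep134, rep138 or rep140 (adjusted p 0.057 to 0.13). Gbp11 lost its call without rep138 or rep140 (adjusted p 0.069 to 0.088). Sntg1 lost its call without rep144, rep146, rep134, rep136, rep138 or rep140 (adjusted p 0.07 to 0.18). Kif26b lost its call without rep146, rep128, rep129, rep134, rep136, rep138 or rep140 (adjusted p 0.055 to 0.18). Slco2a1 lost its call without rep146, rep128, rep129, rep134, rep136, rep138 or rep140 (adjusted p 0.074 to 0.19).

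**Figure D3:**
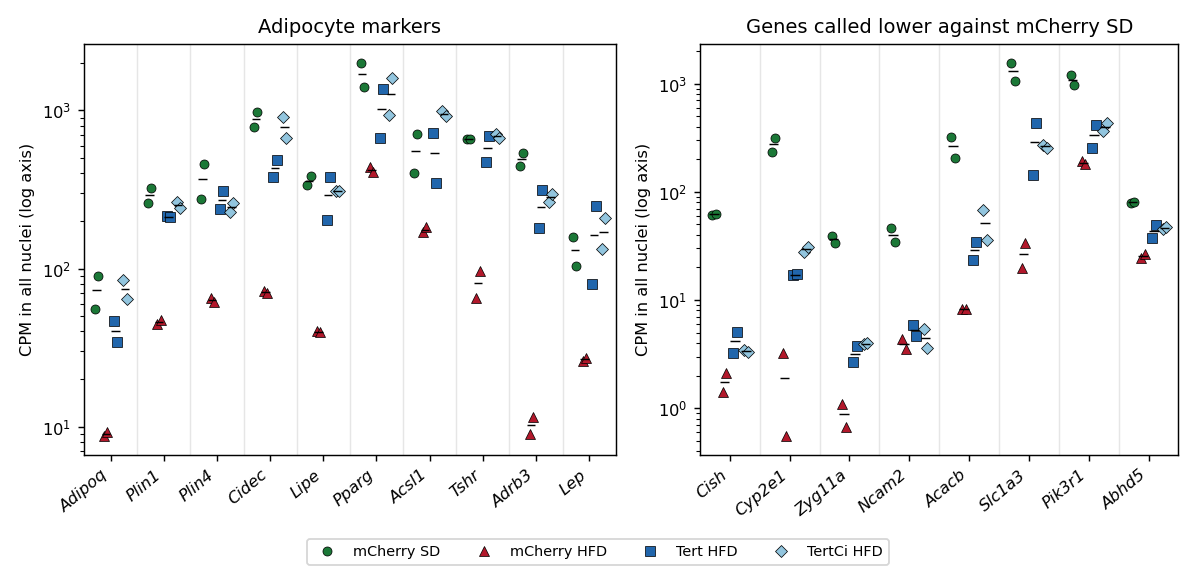
Level in all nuclei, in CPM on a log axis, of the 10 adipocyte markers (left) and of 8 genes called lower (right), with 1 point a library and a bar at each group's mean. For Plin1 the Tert and TertCi points lie between 212 and 263 CPM, near the mCherry SD points, whereas for Cish they lie between 3.22 and 5.07 CPM, near the mCherry HFD points at 1.42 and 2.10 CPM.

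The metabolic lists of adipocytes held few calls, against a background of 0.833% of all genes higher and 0.397% lower. De novo lipogenesis had 2 of 16: Acacb was lower, and Insig1, a brake on sterol and fatty acid synthesis, was higher, at 10.8 and 10.6 CPM in mCherry SD, 23.2, 31.2, 22.3 and 30.9 CPM in Tert and TertCi HFD and 24.5 and 22.8 CPM in mCherry HFD. For Insig1 the log2 fold change came to 1.32 ± 0.20 (SE), with an adjusted p of 0.031. Insulin signalling and glucose uptake had 2 of 14, both lower: Pik3r1 and Pck1, which supplies glycerol for triglyceride, at 248 and 285 CPM in mCherry SD, 102, 90.6, 199 and 132 CPM in Tert and TertCi HFD and 11.1 and 9.36 CPM in mCherry HFD. For Pck1 the log2 fold change came to -1.08 ± 0.18 (SE), with an adjusted p of 0.037. Lipolysis and adrenergic signalling had 1 of 15, Abhd5, the coactivator of the triglyceride lipase, lower (-0.84 ± 0.13 (SE), adjusted p = 0.035). Adipokines had 1 of 12, Nrg4, a ligand that fat sends to the liver, lower, at 699.6 and 592 CPM in mCherry SD, 184, 306, 326 and 366 CPM in Tert and TertCi HFD and 31.6 and 28.7 CPM in mCherry HFD. For Nrg4 the log2 fold change came to -1.15 ± 0.20 (SE), with an adjusted p of 0.045. Fatty acid oxidation and thermogenesis had 1 of 13, Ehhadh, an enzyme of peroxisomes, lower (-1.56 ± 0.25 (SE), adjusted p = 0.036). DESeq2 called 4 insulin genes, 5 lipolysis genes and 2 adipokines lower. Over all 22678 genes DESeq2 called 593 lower and 1350 in either direction, and 3753 had an unadjusted p under 0.05 by edgeR. Triglyceride synthesis had 0 of 15 (8 at an unadjusted p under 0.05, 3 by DESeq2) and genes of fat expansion 0 of 9 (5 and 3). In mCherry HFD against mCherry SD these lists had 9 of 16, 12 of 14, 14 of 15, 7 of 12, 7 of 13, 10 of 15 and 5 of 9 genes lower, in the same order (17.4% of all genes were). The calls of Insig1, Pck1, Abhd5, Nrg4 and Ehhadh were each lost when some single library was left out. Insig1 lost its call without rep144, rep146, rep128, rep129, rep138 or rep140 (adjusted p 0.057 to 0.18). Pck1 lost its call without rep146, rep128, rep129, rep134, rep136 or rep140 (adjusted p 0.058 to 0.2). Abhd5 lost its call without rep144, rep146, rep128, rep129, rep138 or rep140 (adjusted p 0.062 to 0.19). Nrg4 lost its call without rep144, rep146, rep128, rep129, rep138 or rep140 (adjusted p 0.073 to 0.15). Ehhadh lost its call without rep146, rep128, rep129, rep134, rep136, rep138 or rep140 (adjusted p 0.058 to 0.16).

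Adipocyte-marked nuclei, taken alone, differed between Tert and TertCi HFD and mCherry SD in other genes. There 418 of 18835 genes were called (2.22%), 187 higher (0.993%) and 231 lower (1.23%). Of 26 collagen and matrix genes 6 were higher and none lower, with a list median of 0.14. In mCherry HFD against mCherry SD 13 of 26 were higher (15.9% of all genes were) with a median of 0.76. Col5a3, a chain of type V collagen, measured 172 and 193 CPM in mCherry SD, 644, 857, 455 and 589.6 CPM in Tert and TertCi HFD and 305 and 590.5 CPM in mCherry HFD. For Col5a3 the log2 fold change came to 1.78 ± 0.28 (SE), with an adjusted p of 0.014. Col6a1 encodes a chain of type VI collagen, which surrounds fat cells, and measured 27.4 and 34.5 CPM in mCherry SD, 99.5, 102, 57.9 and 73.5 CPM in Tert and TertCi HFD and 53.3 and 81.0 CPM in mCherry HFD. For Col6a1 the log2 fold change came to 1.39 ± 0.21 (SE), with an adjusted p of 0.013. Col6a2 measured 31.3 and 28.0 CPM in mCherry SD, 73.2, 86.3, 45.9 and 67.2 CPM in Tert and TertCi HFD and 53.2 and 54.0 CPM in mCherry HFD. For Col6a2 the log2 fold change came to 1.18 ± 0.19 (SE), with an adjusted p of 0.017. In each of these 3 genes the 4 values were above both mCherry SD values, and at least 1 of them was above both mCherry HFD values. The other 3 were Col5a1 (1.10 ± 0.20 (SE), adjusted p = 0.027) and the basement membrane chains Col4a1 (0.76 ± 0.16 (SE), adjusted p = 0.04) and Col4a2 (0.86 ± 0.17 (SE), adjusted p = 0.036). Col6a2 lost its call without rep146 (adjusted p = 0.095). Col5a1 lost its call without rep144, rep146, rep128, rep129 or rep140 (adjusted p 0.051 to 0.13). Col4a1 lost its call without rep144, rep146, rep128, rep129, rep134, rep138 or rep140 (adjusted p 0.062 to 0.28). Col4a2 lost its call without rep144, rep128, rep129, rep134, rep138 or rep140 (adjusted p 0.065 to 0.23). With nuclei marked by at least 2 markers, 2 of the 26 were called. The 418 calls came to 185 without rep146, 217 without rep128, 219 without rep129 and 261 without rep138, with 100 higher and 295 lower without rep144, and the 6 collagen calls to 3 without rep144, rep146, rep128, rep129 or rep140 and 4 without rep134.

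Bcl6, a transcriptional repressor that growth hormone and STAT5 are known to lower, rose in adipocyte-marked nuclei. It measured 122 and 105 CPM in mCherry SD, 309.5, 301, 479 and 343 CPM in Tert and TertCi HFD and 177 and 257 CPM in mCherry HFD. For Bcl6 the log2 fold change came to 1.64 ± 0.21 (SE), with an adjusted p of 0.0066. All 4 values were above both values of either mCherry group, and the difference from mCherry HFD was called (0.72 ± 0.20 (SE), adjusted p = 0.034). That difference from mCherry HFD was lost for Bcl6 without rep128, rep129 or rep138 (adjusted p 0.061 to 0.32). Over all nuclei Bcl6 was not called (1.10 ± 0.23 (SE), adjusted p = 0.065). Its promoter window held 3 copies of TTCNNNGAA, shown in capitals from 174 to 74 bases before one of its start sites (RefSeq, GRCm38.p6, minus strand, chr16:23981357-23981457).

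Bcl6: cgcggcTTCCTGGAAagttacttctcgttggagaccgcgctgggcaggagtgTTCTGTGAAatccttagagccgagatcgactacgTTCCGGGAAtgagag

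Igf1 measured 631 and 599 CPM in mCherry SD, 278, 266, 140.1 and 338 CPM in Tert and TertCi HFD and 284 and 415 CPM in mCherry HFD in adipocyte-marked nuclei, with all 4 values below both mCherry SD values (adjusted p = 0.056). Igf1 was called without rep138 or rep140 (adjusted p 0.0044 to 0.037). In macrophage-marked nuclei Igf1 measured 531 and 505 CPM in mCherry SD, 791, 621, 518 and 829.6 CPM in Tert and TertCi HFD and 385 and 449.8 CPM in mCherry HFD (adjusted p = 0.29). The receptor gene Ghr measured 22547 and 15498 CPM in mCherry SD, 10586, 14431, 17027 and 12625 CPM in Tert and TertCi HFD and 6491 and 8929 CPM in mCherry HFD in adipocyte-marked nuclei and was not called (adjusted p = 0.48).

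Insulin and lipid genes gave a mixed picture in these nuclei. Of 14 insulin signalling genes 2 were lower (1.23% of all genes were), against 5 in mCherry HFD against mCherry SD (9.59% of all genes were), and 8 were higher than in mCherry HFD (7.47% of all genes were). In that comparison 3795 genes were called in all (20.1%), which came to 41 without rep128, 516 without rep129, 2493 without rep138 and 2497 without rep140. Pik3r1 measured 1591 and 1282 CPM in mCherry SD, 329.6, 504, 475 and 549 CPM in Tert and TertCi HFD and 287 and 259.5 CPM in mCherry HFD. For Pik3r1 the log2 fold change came to -1.64 ± 0.19 (SE), with an adjusted p of 0.0046. Irs1, the docking protein of the insulin receptor, measured 358 and 391 CPM in mCherry SD, 166, 184, 248 and 252 CPM in Tert and TertCi HFD and 104 and 139 CPM in mCherry HFD. For Irs1 the log2 fold change came to -0.84 ± 0.15 (SE), with an adjusted p of 0.021. Irs1 lost its call without rep146 or rep138 (adjusted p 0.052 to 0.11). Slc2a4, the insulin-responsive glucose transporter, measured 15.7 and 22.0 CPM in mCherry SD, 13.3, 21.8, 20.7 and 14.4 CPM in Tert and TertCi HFD and 8.74 and 2.61 CPM in mCherry HFD, and its Tert and TertCi values overlapped with mCherry SD. Acacb was lower (-2.47 ± 0.27 (SE), adjusted p = 0.0038). Scarb1, a receptor that takes up cholesterol from lipoproteins, measured 132 and 117 CPM in mCherry SD, 61.2, 58.0, 71.5 and 66.0 CPM in Tert and TertCi HFD and 52.9 and 56.6 CPM in mCherry HFD. For Scarb1 the log2 fold change came to -0.95 ± 0.13 (SE), with an adjusted p of 0.0087. Insig1 measured 10.7 and 12.2 CPM in mCherry SD, 43.4, 48.0, 32.7 and 46.9 CPM in Tert and TertCi HFD and 99.8 and 53.1 CPM in mCherry HFD. For Insig1 the log2 fold change came to 1.88 ± 0.27 (SE), with an adjusted p of 0.012. Esrrg, an orphan nuclear receptor of oxidative metabolism, measured 43.3 and 49.9 CPM in mCherry SD, 139, 143.9, 161 and 144.3 CPM in Tert and TertCi HFD and 230.3 and 164 CPM in mCherry HFD, with the 4 values close together. For Esrrg the log2 fold change came to 1.65 ± 0.18 (SE), with an adjusted p of 0.0038. Abhd5 was lower (-0.69 ± 0.13 (SE), adjusted p = 0.027), and Adora1, the adenosine receptor that restrains lipolysis, was higher (0.96 ± 0.17 (SE), adjusted p = 0.023). Abhd5 lost its call without rep144, rep146, rep128, rep129, rep138 or rep140 (adjusted p 0.055 to 0.17). Adora1 lost its call without rep144, rep146, rep128, rep129, rep138 or rep140 (adjusted p 0.055 to 0.12).

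Peg3, an imprinted gene on the list of fat expansion genes, measured 89.5 and 75.6 CPM in mCherry SD, 523, 786, 712 and 227 CPM in Tert and TertCi HFD and 297 and 189.9 CPM in mCherry HFD in adipocyte-marked nuclei. For Peg3 the log2 fold change came to 2.75 ± 0.44 (SE), with an adjusted p of 0.017. Peg3 lost its call without rep146 (adjusted p = 0.069). Mest, another imprinted gene, which marks expanding fat, measured 27.8 and 53.2 CPM in mCherry SD, 180.2, 67.3, 158 and 90.8 CPM in Tert and TertCi HFD and 155 and 108 CPM in mCherry HFD and was not called (adjusted p = 0.094). Mest was called without rep136 (adjusted p = 0.022). Trdn encodes triadin, a protein of muscle calcium release, and measured 2.72 and 1.11 CPM in mCherry SD, 19.5, 12.2, 31.4 and 35.2 CPM in Tert and TertCi HFD and 31.8 and 7.84 CPM in mCherry HFD. For Trdn the log2 fold change came to 3.71 ± 0.54 (SE), with an adjusted p of 0.012. Slc5a7, a choline transporter, measured 14.2 and 7.79 CPM in mCherry SD, 97.4, 87.3, 77.1 and 48.4 CPM in Tert and TertCi HFD and 152 and 70.5 CPM in mCherry HFD. For Slc5a7 the log2 fold change came to 2.82 ± 0.38 (SE), with an adjusted p of 0.0082. Serpina1b, a protease inhibitor best known from liver, was at 0.503 and 1.11 CPM in mCherry SD, 17.1, 4.65, 13.5 and 5.56 CPM in Tert and TertCi HFD and 27.8 and 39.2 CPM in mCherry HFD. M1ap, a gene of meiosis, was at 1.41 and 1.95 CPM in mCherry SD, 16.0, 10.02, 6.46 and 13.7 CPM in Tert and TertCi HFD and 35.6 and 7.84 CPM in mCherry HFD. Serpina1b lost its call without rep146, rep128 or rep129 (adjusted p 0.058 to 0.06). M1ap lost its call without rep144, rep146, rep134 or rep140 (adjusted p 0.067 to 0.12). In Peg3, Trdn, Slc5a7, Serpina1b and M1ap all 4 values were above both mCherry SD values. Several of the largest falls were high in rep146. Ryr3, a calcium channel, measured 0.805 and 51.7 CPM in mCherry SD and 0.651, 0.716, 0.440 and 0.121 CPM in Tert and TertCi HFD. Grip1, a scaffold of receptors, was at 2.11 and 23.3 CPM in mCherry SD and 2.06, 0.716, 0.587 and 0.605 CPM in Tert and TertCi HFD. Ncam1, an adhesion molecule, was at 3.42 and 33.8 CPM in mCherry SD and 1.14, 1.07, 1.81 and 2.90 CPM in Tert and TertCi HFD. Kcnd2, a potassium channel, was at 24.7 and 75.8 CPM in mCherry SD and 7.76, 4.65, 4.06 and 2.42 CPM in Tert and TertCi HFD, and the netrin receptor Unc5c at 11.98 and 28.0 CPM in mCherry SD and 1.30, 3.58, 4.11 and 0.967 CPM in Tert and TertCi HFD. The calls of Ryr3, Grip1 and Ncam1 were lost without that library and without others. Ryr3 lost its call without rep146, rep128, rep129, rep134, rep136, rep138 or rep140 (adjusted p 0.052 to 0.77). Grip1 lost its call without rep146, rep128, rep129, rep134, rep136, rep138 or rep140 (adjusted p 0.069 to 0.6). Ncam1 lost its call without rep146, rep128, rep129, rep134, rep136, rep138 or rep140 (adjusted p 0.066 to 0.58). Kcnd2 lost its call without rep146 (adjusted p = 0.067). Unc5c lost its call without rep146, rep128, rep129 or rep134 (adjusted p 0.055 to 0.12).

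RNA of other cells was part of these sums too, and its part in the other calls was not tested. Within adipocyte-marked nuclei 5 of the 16 lipid-associated macrophage genes were higher (0.993% of all genes were). Gpnmb was among them (2.77 ± 0.21 (SE), adjusted p = 0.00041), at levels below those of the empty droplets given above. Of 12 macrophage markers 0 were called (2 had an unadjusted p under 0.05, and the median was 0.15). Nuclei with at least 3 of those 12 markers were kept out of this class, so that count is no finding. B cell genes had 4 of 8 lower and mesothelial markers 4 of 7 (1.23% of all genes were). By DESeq2 2 B cell genes were lower and 1 higher, against 318 lower and 353 higher of all 18835 genes. Of 12 perivascular genes 2 were lower, Timd4 (-2.03 ± 0.35 (SE), adjusted p = 0.021) and Gas6 (-1.21 ± 0.20 (SE), adjusted p = 0.017). Timd4 lost its call without rep144, rep134 or rep138 (adjusted p 0.053 to 0.12). Gas6 lost its call without rep144 (adjusted p = 0.088). With at least 2 or at least 4 adipocyte markers required, 0 mesothelial markers were called.

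**Figure D4:**
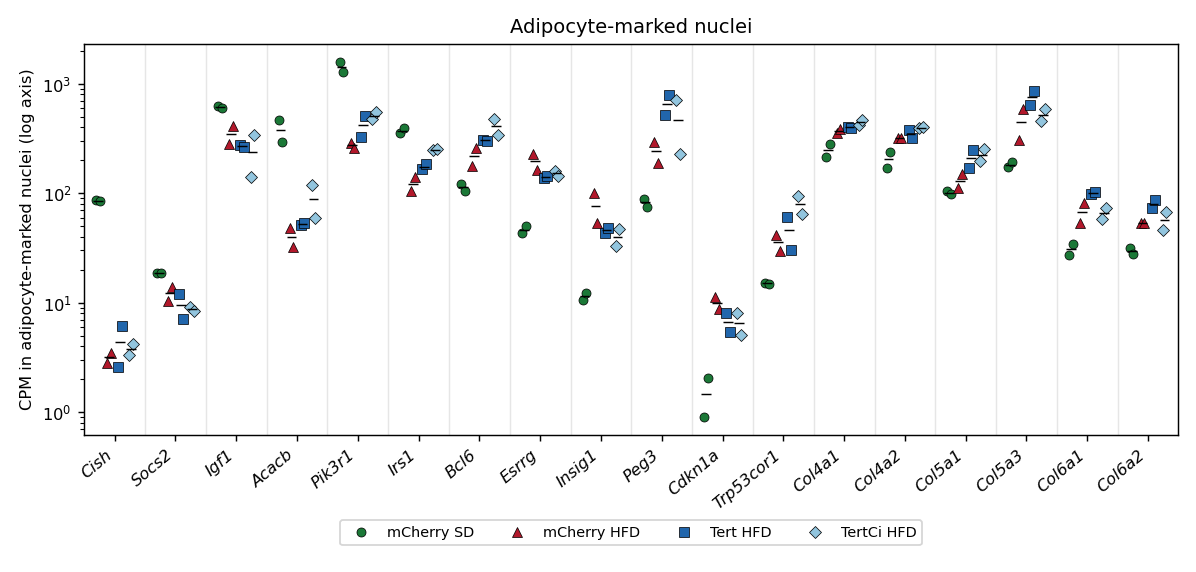
Level of 18 genes in adipocyte-marked nuclei, in CPM on a log axis, with 1 point a library and a bar at each group's mean. Cish lies between 2.60 and 6.08 CPM in Tert and TertCi HFD against 85.9 and 85.3 CPM in mCherry SD, and Bcl6 between 301 and 479 CPM against 122 and 105 CPM.

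The p21 locus carries the inserts. Cdkn1a over all nuclei measured 1.56 and 2.23 CPM in mCherry SD, 6.49, 3.43, 5.85 and 4.25 CPM in Tert and TertCi HFD and 9.89 and 7.86 CPM in mCherry HFD and was not called (1.42 ± 0.34 (SE), adjusted p = 0.093), though all 4 values were above both mCherry SD values. In adipocyte-marked nuclei it was called, at 0.906 and 2.04 CPM in mCherry SD, 7.97, 5.37, 8.02 and 5.08 CPM in Tert and TertCi HFD and 11.3 and 8.71 CPM in mCherry HFD. For Cdkn1a the log2 fold change came to 2.12 ± 0.40 (SE), with an adjusted p of 0.03. Cdkn1a lost its call without rep144, rep128, rep129, rep134 or rep138 (adjusted p 0.069 to 0.11). Of 17 cyclin-dependent kinase inhibitors and p53 targets 0 were called over all nuclei (4 at an unadjusted p under 0.05, 1 by DESeq2, median 0.26), and Cdkn1a was the 1 called in adipocyte-marked nuclei (0.993% of all genes were higher there), with 2 by DESeq2 (3.56% of all genes were called). Trp53cor1, a long noncoding RNA next to Cdkn1a, was chosen after its values were seen. It measured 10.6 and 10.7 CPM in mCherry SD, 25.3, 19.6, 50.1 and 37.4 CPM in Tert and TertCi HFD and 13.4 and 11.0 CPM in mCherry HFD. For Trp53cor1 the log2 fold change came to 1.56 ± 0.20 (SE), with an adjusted p of 0.017. Trp53cor1 lost its call without rep146 or rep138 (adjusted p 0.069 to 0.13). The TertCi values were the highest, and mCherry HFD was near mCherry SD (0.20 ± 0.21 (SE), adjusted p = 0.48). The telomerase list had 0 of 8 called (3 at an unadjusted p under 0.05, 0 by DESeq2), with a median of -0.01. Over all nuclei 3753 of 22678 genes had an unadjusted p under 0.05, and DESeq2 called 1350.

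Some rises did not stand between the mCherry groups. ENSMUSG00000120253, a gene with no symbol in the feature list, measured 1.13 and 1.16 CPM in mCherry SD, 14.7, 6.87, 5.44 and 17.7 CPM in Tert and TertCi HFD and 1.68 and 1.22 CPM in mCherry HFD. For ENSMUSG00000120253 the log2 fold change came to 3.30 ± 0.59 (SE), with an adjusted p of 0.048. Its difference from mCherry HFD was also called (2.92 ± 0.56 (SE), adjusted p = 0.0075, but adjusted p = 0.063 without rep128). Trdn over all nuclei measured 2.95 and 1.13 CPM in mCherry SD, 9.40, 7.16, 18.7 and 19.8 CPM in Tert and TertCi HFD and 3.905 and 5.70 CPM in mCherry HFD. For Trdn the log2 fold change came to 2.69 ± 0.41 (SE), with an adjusted p of 0.032. Notch3, a receptor that mural cells need, was the 1 mural marker of 8 called (0.833% of all genes were higher, and 2 of 8 by DESeq2, which called 757 of 22678 genes higher), at 18.7 and 22.4 CPM in mCherry SD, 40.1, 48.8, 37.9 and 44.8 CPM in Tert and TertCi HFD and 31.9 and 30.4 CPM in mCherry HFD. For Notch3 the log2 fold change came to 1.06 ± 0.15 (SE), with an adjusted p of 0.028. In these 3 genes all 4 Tert and TertCi values were above both values of either mCherry group. ENSMUSG00000120253 lost its call without rep144, rep146, rep128, rep129, rep134 or rep140 (adjusted p 0.075 to 0.23). Trdn lost its call without rep146, rep128, rep134, rep138 or rep140 (adjusted p 0.06 to 0.12). Notch3 lost its call without rep144, rep146, rep128, rep129, rep138 or rep140 (adjusted p 0.056 to 0.12).

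Lists of other cell types and pathways held no call by edgeR over all nuclei. For each the number at an unadjusted p under 0.05 and the number called by DESeq2 follow in brackets. Over all 22678 genes these were 3753 and 1350 (5.95%), so a list's bracketed counts are to be read against those. Endothelial markers had 0 of 9 called (8 and 5) with a median of 1.00, against -0.18 in mCherry HFD against mCherry SD, and 6 of 9 were higher than in mCherry HFD (15.2% of all genes were). Cell cycle genes had 0 of 12 (7 and 3) with a median of 0.98, against 11 of 12 higher (22.2% of all genes were) with a median of 2.34 in mCherry HFD. Mki67, the marker of dividing cells, measured 1.99 and 2.80 CPM in mCherry SD, 7.36, 4.92, 3.07 and 4.08 CPM in Tert and TertCi HFD and 14.5 and 17.4 CPM in mCherry HFD (adjusted p = 0.14). MHC class II had 0 of 7 (2 and 2) with a median of 0.85. Its chaperone Cd74 measured 51.8 and 58.5 CPM in mCherry SD, 179.6, 55.1, 86.0 and 84.3 CPM in Tert and TertCi HFD and 258 and 164 CPM in mCherry HFD (adjusted p = 0.35), with rep134 the highest of the 4. Cd74 was called without rep136 (adjusted p = 0.048). The interferon response had 0 of 12 (0 and 0, median 0.06), and T and NK cell genes 0 of 11 (0 and 0, median -0.08). Monocyte genes had 0 of 10 (3 and 2, median 0.09), and progenitor markers 0 of 11 (2 and 0, median -0.09). Collagen and matrix had 0 of 26 (11 and 4, median 0.22). The lowest medians over the 33 lists were those of epithelial markers (-3.47, 0 of 6 called, 6 and 5), mesothelial markers (-1.49, 0 of 7 called, 5 and 4) and B cell genes (-1.27, 0 of 8 called, 5 and 2). These medians rested on single libraries. Epithelial markers summed to 9.27 CPM in rep144 and 52.9 CPM in rep146, against 2.15 to 6.45 CPM in Tert and TertCi HFD. Their median was -1.44 without rep146. That of mesothelial markers was -0.94 without rep144 and -2.44 without rep134, and that of B cell genes -0.71 and -2.13. The list of RNA quality and blood genes had 0 of 7 called (0 and 0), with a median of 0.20.

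**Figure D5:**
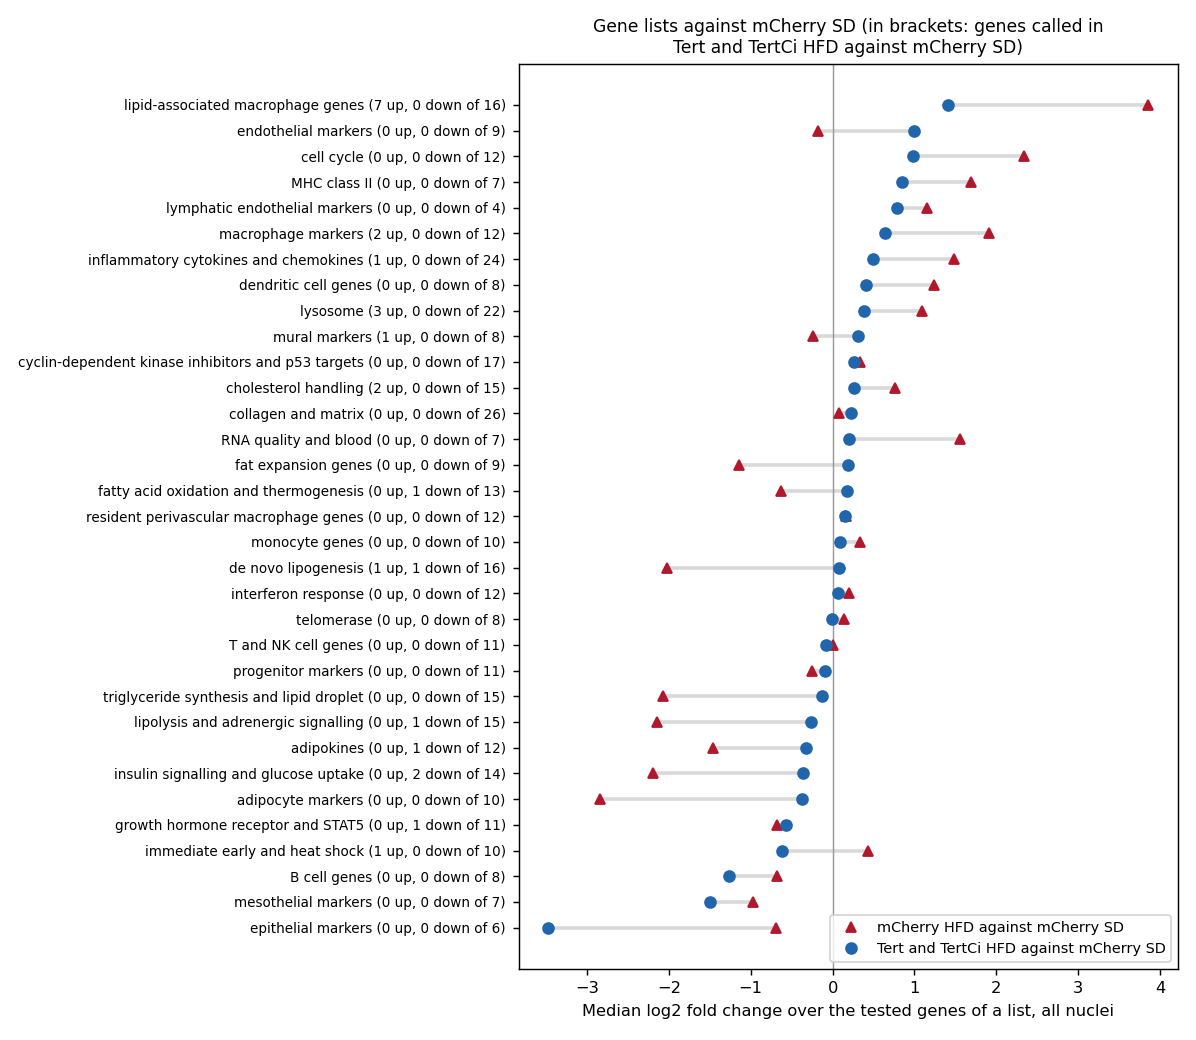
Median log2 fold change of the 33 gene lists over all nuclei, for Tert and TertCi HFD against mCherry SD (circles) and for mCherry HFD against mCherry SD (triangles), with the number of genes called in brackets. The lipid-associated macrophage list lies at 1.41 and 3.86, and the adipocyte markers lie at -0.37 and -2.85. Both comparisons share the mCherry SD libraries.

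The largest rises of Tert and TertCi HFD over mCherry HFD included genes that did not pass the test against the standard diet. Adrb3, the adrenergic receptor of adipocytes, measured 447 and 538 CPM in mCherry SD, 181, 313, 265 and 298 CPM in Tert and TertCi HFD and 9.05 and 11.5 CPM in mCherry HFD. For Adrb3 the log2 fold change against mCherry HFD came to 4.69 ± 0.29 (SE), with an adjusted p of 0.00024. Against mCherry SD it was not called (-0.90 ± 0.22 (SE), adjusted p = 0.094). Trhde, a peptidase that degrades thyrotropin-releasing hormone, measured 199 and 191 CPM in mCherry SD, 143, 287, 234 and 349 CPM in Tert and TertCi HFD and 11.6 and 15.2 CPM in mCherry HFD. For Trhde the log2 fold change against mCherry HFD came to 4.23 ± 0.36 (SE), with an adjusted p of 0.00059. Against mCherry SD Trhde was not called (0.36 ± 0.29 (SE), adjusted p = 0.6). Adrb3 was called without rep136 (adjusted p = 0.028). Chst1, a sulfotransferase, was at 169.9 and 116 CPM in mCherry SD, 40.1, 131, 112 and 83.2 CPM in Tert and TertCi HFD and 3.67 and 5.59 CPM in mCherry HFD. Syt14, of the synaptotagmin family, was at 39.3 and 30.4 CPM in mCherry SD, 6.98, 17.9, 16.8 and 13.5 CPM in Tert and TertCi HFD and 0.861 and 0.941 CPM in mCherry HFD. Taco1, a mitochondrial translation factor, was at 1756 and 985 CPM in mCherry SD, 369, 3219.9, 1574 and 2679 CPM in Tert and TertCi HFD and 69.1 and 155 CPM in mCherry HFD, and Adamtsl2, a matrix protein, at 2.74 and 1.05 CPM in mCherry SD, 3.10, 42.7, 5.89 and 4.59 CPM in Tert and TertCi HFD and 0.805 and 0.277 CPM in mCherry HFD. The mCherry HFD values of these 4 genes were the lowest, and Adamtsl2 was highest in rep136. Taco1 lost its call against mCherry HFD without rep128 (adjusted p = 0.11), and Adamtsl2 without rep128, rep129, rep138 or rep140 (adjusted p 0.0504 to 0.11). Among the largest falls Adam28, Lipc, Cnksr2 and Atp10b were high in rep128 alone, at 78.5 and 0.664 CPM, 113 and 2.38 CPM, 68.6 and 0.664 CPM and 19.7 and 0.443 CPM in mCherry HFD. Without rep128 none of these 4 was called (adjusted p 0.24 to 0.55). Olfr112, an olfactory receptor gene, was high in both mCherry HFD libraries, at 0 and 0 CPM in mCherry SD, 0.869, 0.149, 0.309 and 0.224 CPM in Tert and TertCi HFD and 15.2 and 13.6 CPM in mCherry HFD. For Olfr112 the log2 fold change against mCherry HFD came to -5.05 ± 0.41 (SE), with an adjusted p of 0.00077.

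The genotypes gave no call against each other. In Tert HFD against TertCi HFD edgeR called 0 of 22678 genes (1364 had an unadjusted p under 0.05), DESeq2 called 23, and edgeR without a filter on low counts called 270. Against mCherry SD on their own, Tert HFD had 257 calls (1.13%) and TertCi HFD 54 (0.238%), and numbers of calls are no test of a difference. Of the 16 lipid-associated genes 9 were higher in Tert HFD (0.882% of all genes were) and 5 in TertCi HFD (0.212% of all genes were), with medians of 1.93 and 0.93. Gpnmb, Atp6v0d2, Mmp12, Lgals3 and Itgax were called in each. Both Tert values of Gpnmb (147 and 184 CPM) were above both TertCi values (89.6 and 90.9 CPM), but the difference was not called (0.87 ± 0.17 (SE), adjusted p = 0.82), nor was that of Trem2 (0.95 ± 0.19 (SE), adjusted p = 0.82). Adipoq stood the other way, with 46.3 and 34.3 CPM in Tert and 84.6 and 64.3 CPM in TertCi (-0.88 ± 0.26 (SE), adjusted p = 0.82). The 257 calls came to 41 without rep146, 94 without rep128, 109 without rep129, 103 without rep134, 74 without rep138 and 82 without rep140. The 54 calls came to 227 without rep144, 12 without rep146, 29 without rep128, 99 without rep136, 7 without rep138 and 8 without rep140.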

How the data were processed

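RNA of single nuclei from visceral fat of 8 mice was deposited as raw UMI counts for every gene and droplet barcode, with empty droplets included. These counts came from Cell Ranger, version 7.1.0 per the file headers and 5.0.1 per the submitters' processing notes, which also name bcl2fastq 2.20.0 and the build mm39. Samples were grouped by genotype and diet labels. Members and gene lists were chosen with earlier results of these data known.

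Counts were summed per library over barcodes with at least 1000 UMIs and at most 5% mitochondrial UMIs, a limit that removed 0 barcodes. At most 0.699% of the barcodes of 2 libraries were shared. edgeR 4.0.16 (limma 3.58.1, R 4.3.3) fitted all 8 libraries in 4 groups with filterByExpr, TMM and a quasi-likelihood test, and p-values were adjusted by Benjamini-Hochberg over all genes tested. SE values of log2 fold changes were worked back from this test and were not estimated by edgeR itself. Each is the absolute log2 fold change over the square root of the test's F statistic. The steps were tested on simulated data. No doublet caller was run. Shares were compared by an exact permutation test (Python 3.11.15, numpy 2.4.6, pandas 2.3.3, scipy 1.17.1).

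Beyond the lists, the text names the 12 largest called changes in each direction (6 against mCherry HFD, 8 within a class) with a mean of at least 10 CPM, groups that do not overlap and a symbol that is not a predicted, mitochondrial or ribosomal name; 1 result that this rule gives is not reported here. Alternatives were other UMI minimums, scalings, groupings and marker minimums, no filter, DESeq2 1.42.0, leaving out each library, and, added after the data were seen, the 3000 deepest barcodes. Sequences came from RefSeq's promoter table for GRCm38.p6, and no coordinates were taken from the deposited files.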

Additional observations from a re-analysis of the deposited data

Results flagged for a closer look

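Among the 4 Tert and TertCi libraries, the values of named genes and the marked shares were screened for 1 library whose gap to its nearest neighbour filled more than 0.829 of the whole range. Chance alone marks about 1 in 20, which comes to 7 here, and 8 were marked. Over all nuclei, Cish was 5.07 CPM in Tert HFD rep136, the shallowest library, against a lowest value of 3.22 CPM. Adamtsl2 was 42.7 CPM in rep136 with a lowest value of 3.10 CPM, and Lipc was 1.84 CPM in rep134 with a lowest value of 1.04 CPM. In macrophage-marked nuclei, Actg2 was 0.0758 CPM in Tert HFD rep134 and 0 in the others, Unc5c was 1.73 CPM in Tert HFD rep136 with a lowest value of 0.531 CPM, and the chemokine gene Ccl8 was 25.5 CPM in Tert HFD rep134 with a lowest value of 6.49 CPM. The call of Ccl8 against mCherry SD (adjusted p = 0.046) was lost without rep144, rep146, rep134, rep138 or rep140 (adjusted p 0.08 to 0.29). In adipocyte-marked nuclei, Grip1 was 2.06 CPM in Tert HFD rep134 with a lowest value of 0.587 CPM, and Acacb was 118 CPM in TertCi HFD rep138 with a lowest value of 51.1 CPM. None of the Cish and Acacb values came near those of mCherry SD.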

How the results depend on the processing

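Of 2238 values of the named gene differences under the alternatives, 1829 kept their side of the threshold, 366 lost a call, 32 gained one and 11 changed sign. In 53 of these differences nothing changed, those of Gpnmb, Mmp12, Atp6v0d2, Itgax, Lgals3, Rgs1, Cish, Zyg11a, Ncam2 and Acacb over all nuclei against mCherry SD among them. Sign changes came in 5 differences that were not called. Without 1 library the log2 fold change ran from -0.63 to 0.56 for Ccl2, -0.028 to 0.64 for Ctsl, -0.15 to 0.69 for Lep, -0.29 to 0.35 for Cd163 in macrophage-marked nuclei and -0.35 to 0.14 for Slc2a4 in adipocyte-marked nuclei. Cd163 was 0.21 with at least 4 markers and 0.014 with no filter. Counts of calls are given here as percent of the genes tested. For Tert and TertCi HFD against mCherry SD 1.23% became 0.613% with a minimum of 2000 UMIs, 0.56% with the 3000 deepest barcodes, 0.811% with library totals only, 0.626% with 3 groups of the 6 libraries, 6.71% (2679 genes) with no filter on low counts and 5.95% (1350 genes) with DESeq2. Without 1 library it was 0.139% to 2.07%. For Tert HFD against mCherry SD 1.13% became 0.471% with 2000 UMIs, 6.2% with no filter, 5.24% with DESeq2 and 0.178% to 1.47% without 1 library. For TertCi HFD against mCherry SD 0.238% became 4.39% with no filter, 2.93% with DESeq2 and 0.0301% to 0.891% without 1 library. For Tert HFD against TertCi HFD 0% became 0.676% with no filter and 0.101% with DESeq2, and stayed 0% without 1 library. Without 1 library mCherry HFD against mCherry SD gave 15.6% to 41.3% and Tert and TertCi HFD against mCherry HFD 8.99% to 39.7%. In macrophage-marked nuclei 2.98% against mCherry SD became 3.47% with no filter (more genes called, of more tested) and 1.25% to 3.41% without 1 library, and 33.0% against mCherry HFD became 18.9% with DESeq2 and 14.1% to 33.5%. In adipocyte-marked nuclei 2.22% became 1.07% with at least 2 markers, 5.06% with no filter, 3.56% with DESeq2 and 0.917% to 2.24% without 1 library, and 20.1% against mCherry HFD became 0.206% (without rep128) to 22.8%. Library totals only moved the median over all genes from 0.06 to 0.49 in mCherry HFD against mCherry SD and from -0.10 to -0.47 in Tert and TertCi HFD against mCherry HFD. The cause of these differences was not tested, beyond fewer samples or other genes entering a fit. Differences in marked shares kept their direction without 1 library, at 7.03 to 11.9 points for macrophage-marked and -17.7 to -11.3 points for adipocyte-marked nuclei. No paired analysis was possible because the replicate numbers differ between groups. Precision is limited by 2 mice a group and, in the shallowest library, by 3234 nuclei. Values of mCherry HFD in adipocyte-marked nuclei rest on 365 (rep128) and 114 (rep129) nuclei.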
